A study of Apostichopus japonicus with 3 samples.

Results

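The respiratory tree of the sea cucumber Apostichopus japonicus at arousal from aestivation was compared with the same organ in non-aestivating animals. The comparison rests on 2 of the 3 libraries of the study, 1 poly(A) RNA library per stage, and the library of deep aestivation is given beside them. Transcripts are given as isotigs, which are contigs of an assembled reference transcriptome, and an isotig entered the comparison when its reads in the 3 libraries came to 20 or more. These were 10896 of the 20991 isotigs with a read in any library. The labels give the organ and the stage of each library and name no treatment, temperature, sex, age or strain, and all 3 stages are of the same species and organ. At least 15 individuals were used per stage, and how their RNA was combined is not stated, so differences between animals cannot be told apart from differences between stages. No transcript that defines the respiratory tree is known well enough to check the organ label.

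Aestivation is a summer dormancy in which the sea cucumber stops feeding, shrinks its gut and lowers its oxygen use, and arousal is the return to activity as the water cools. The respiratory tree is a branched hollow organ opening into the cloaca. Its ciliated epithelium, muscle and wandering immune cells (coelomocytes) exchange gas between pumped sea water and the fluid of the body cavity. In dormant animals, protein synthesis, cell division and anabolic metabolism are commonly held down, so transcripts of these functions are of interest at the end of dormancy.

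Uniquely mapped reads numbered 0.941 M in non-aestivation, 0.887 M in deep aestivation and 0.963 M at arousal. One read on an isotig of 1 kb was therefore worth 1.06, 1.13 and 1.04 RPKM (reads per kilobase of isotig, scaled to the depth of the library). Below, 3 read numbers or RPKM values in a row are always in the order non-aestivation, deep aestivation, arousal. An isotig was called higher or lower at arousal when log2(RPKM + 0.5) differed by at least 1 from non-aestivation, which is 2-fold and understates the change of rare transcripts. Folds of single isotigs are ratios of read rates with exact 95% intervals (conditional binomial), which cover counting error only. With 1 library per stage, no difference has a replicate check and no p-value is given. In a bulk sample, fewer cells of a type and less RNA per cell cannot be told apart.

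At arousal, the transcripts of major yolk proteins, a Kazal-type protease inhibitor, several basement membrane proteins, serine and fatty acid synthesis enzymes, chaperones and cell division proteins were lower than in non-aestivation. The enzymes betaine-homocysteine methyltransferase and glycine N-methyltransferase, the transcription factor KLF2/4, 1 of 4 histone H1 isotigs, a ficolin isotig and cathepsin L2 were higher. Digestive hydrolases were mixed. Several were higher, anionic trypsin-1 was lower, and others such as alpha-amylase and sucrase-isomaltase were within 2-fold. With RPKM scaling, ribosomal proteins and mitochondrially encoded respiratory subunits stood close to their level in non-aestivation. Of the 10896 isotigs, 1366 were at least 2-fold higher at arousal (12.5%) and 2053 at least 2-fold lower (18.8%), so that 31.4% passed 2-fold in either direction. Requiring also an interval that excluded equal rates left 1112 higher (10.2%) and 1676 lower (15.4%), or 25.6% in either direction.

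The direction depended on whether an isotig matched a known protein. Of 5686 isotigs with a protein match, 380 were higher (6.68%) and 1454 lower (25.6%), with a median log2 ratio of -0.40. Of 5210 isotigs without a match, 986 were higher (18.9%) and 599 lower (11.5%), with a median of 0.19. With an interval excluding equal rates, the numbers were 296 (5.21%) and 1226 (21.6%) of the matched and 816 (15.7%) and 450 (8.64%) of the unmatched isotigs. The matched isotigs were lower in the median in each of 4 classes of isotig length, from -0.46 to -0.34, and the unmatched were higher, from 0.08 to 0.23. In 4 classes of rising abundance, the matched median was -0.47, -0.42, -0.22 and 0.13, so that the most abundant matched isotigs did not share the lower median. That class of 161 matched isotigs took in many of the ribosomal proteins described below, whose own median was 0.22. The unmatched stayed above 0 in all 4 classes, from 0.07 to 0.43. Reads on unmatched isotigs made up 39.8%, 47.6% and 52.0% of the libraries. Reads on matched isotigs other than major yolk protein 1 made up 53.0%, 45.6% and 47.8%.

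All lists of proteins described below hold matched isotigs, so their counts in RPKM stand beside 6.68% higher and 25.6% lower. The balance of higher and lower also depended on the scaling. Higher isotigs made up 39.95% of the calls with RPKM, 48.4% with TMM factors (1632 higher, 1737 lower), where the median log2 ratio shifted by 0.12, and 49.4% with median-of-ratios factors (1658 higher, 1695 lower), where it shifted by 0.13. Centring on matched isotigs shifted it by 0.40 and made the share 68.2% (2453 higher, 1142 lower, of all 10896 isotigs). Centring lowers the number called lower in any list, so centred list counts do not stand beside 25.6%. The centred share over matched isotigs alone is not given here. Among isotigs with at least 100 reads, higher isotigs made up 51.2% of the calls. Summing reads over isotigs of 1 protein name left 9075 entries, unmatched isotigs included, of which 1187 were higher and 1604 lower. Counts of names in the lists below are over fewer members than counts of isotigs, so a smaller count is not by itself a smaller share.

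**Figure D1:**
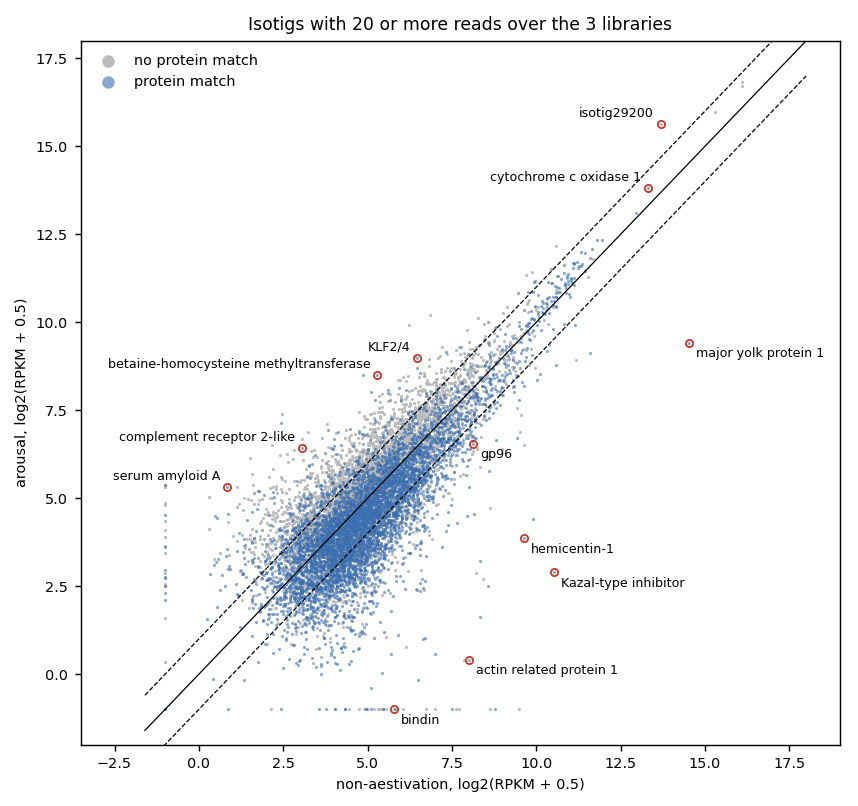
Level of each of the 10896 isotigs in non-aestivation (x axis) and arousal (y axis), both as log2(RPKM + 0.5), with blue points for isotigs with a protein match and grey points for those without, and labelled circles for transcripts named in the text. The solid line marks equal levels and the dashed lines 2-fold, and the blue cloud lies more below the solid line than the grey cloud, with medians of -0.40 and 0.19.

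**Figure D2:**
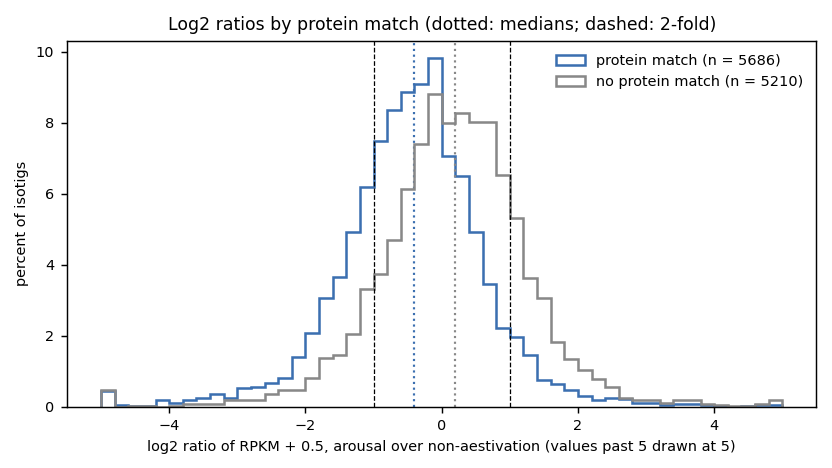
Distribution of the log2 ratio of RPKM + 0.5, arousal over non-aestivation (x axis), as a percent of isotigs per bin (y axis), for 5686 isotigs with and 5210 without a protein match. Dotted lines mark the medians of -0.40 and 0.19 and dashed lines mark 2-fold.

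Major yolk proteins are iron-binding relatives of transferrin that echinoderms make in gut and gonad and carry in the coelomic fluid. Major yolk protein 1 (isotig13120) had 67076, 60653 and 1995 reads, or 7.13% of the non-aestivation library and 0.207% of the arousal library. Major yolk protein 2 (isotig03531) had 1348, 913 and 37 reads, which covered only 1.75% of its length in each library, against at least 99.64% for major yolk protein 1. Both were still high in deep aestivation and low only in the arousal library, where they were 34.4-fold (32.9 to 36.0) and 37.3-fold (26.9 to 53.2) below non-aestivation. Of the 9 isotigs named for yolk or iron-binding proteins, 5 were lower and 1 higher. Melanotransferrin, a membrane-bound transferrin relative, had 112, 45 and 23 reads and was 4.98-fold lower. Hephaestin (isotig08433), a copper enzyme that oxidises iron on its way out of cells, was the member that rose, with 47, 71 and 122 reads (2.54-fold, 1.80 to 3.63). Vitellogenin-named isotigs had 82, 28 and 22 reads (isotig17734) and 127, 72 and 60 reads (isotig14304).

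Several secreted proteins of the body fluid and the matrix shared the drop at arousal. A Kazal-type protease inhibitor (isotig18647), of a family that blocks serine proteases, had 1240, 406 and 6 reads, which is 211-fold lower at arousal (96.9 to 577). A second isotig of that name had 141, 24 and 2 reads. Alpha macroglobulin, which traps proteases of all classes, had 353, 112 and 57 reads over 3 isotigs and was 6.34-fold lower. The relatives named alpha-2-macroglobulin-like (227, 178 and 143 reads) and alpha-2-macroglobulin (165, 149 and 140 reads) were within 2-fold. Of 13 protease inhibitor isotigs 5 were lower and 2 higher, with a median of -0.27 that was 0.13 when ratios were centred on matched isotigs. Summed by protein name, 2 names were lower, which held the 5 lower isotigs, and 0 were higher.

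Basement membrane and other extracellular matrix transcripts made up one of the lists with most members lower. Of 49 isotigs, 24 were lower and 2 higher, and the median log2 ratio was -0.95, against -0.40 over all matched isotigs. FRAS1 (isotig16081), which links epithelia to the tissue beneath, had 364, 100 and 3 reads and was 124-fold lower (42.1 to 605), and 35.7-fold lower over its 2 isotigs. Hemicentin-1, a fibulin-like protein of tissue junctions, had 729, 71 and 12 reads over its 2 isotigs, 62.1-fold lower. Fibrillar collagen alpha 120 and 140 chains (isotig20045) had 1677, 580 and 735 reads, 2.33-fold lower (2.14 to 2.55), and alpha-5 collagen on isotig06513 had 397, 176 and 135 reads, 3.01-fold lower, or 1.80-fold lower over 9 isotigs. Lysyl oxidase-like 2, which cross-links collagen, had 425, 137 and 103 reads, 4.22-fold lower (3.40 to 5.29). All of these were below non-aestivation in deep aestivation too. The members that rose were tenascin-R-like (20, 50 and 61 reads, 2.98-fold) and an alpha-2 collagen isotig (4, 10 and 15 reads), while alpha-2 collagen over 8 isotigs was 3.28-fold lower. Summed by protein name, 11 names were lower and 1 higher.

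Proteases that act on matrix or are secreted went both ways. Of 23 isotigs 8 were lower and 5 higher, with a median of -0.40, which centring on matched isotigs brought to 0.004. The list takes in enzymes also counted as gut markers below. A trypsin-like serine protease is among its higher members and anionic trypsin-1 among its lower. ADAMTS7, a metalloprotease of cartilage matrix in mammals, had 219, 174 and 1 reads, a 224-fold lower rate (39.8 to 8889). Angiotensin-converting enzyme, a peptidase that trims small peptides, had 127, 126 and 1 reads, 130-fold lower (22.9 to 5172). Both kept their level through deep aestivation and had 1 read at arousal. Matrix metalloproteinase 16 had 94, 248 and 221 reads on isotig11251 (2.30-fold higher, 1.80 to 2.96), while other isotigs of like name had 121, 130 and 146 (isotig14227) and 42, 44 and 54 (isotig24202), and matrix metalloproteinase 24 had 39, 93 and 94 reads (2.36-fold higher, 1.61 to 3.52). Pregnancy-associated plasma protein-A (isotig13409), a metalloprotease known in vertebrates for cleaving carriers of insulin-like growth factors, had 31, 69 and 175 reads, 5.52-fold higher (3.75 to 8.37).

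**Figure D3:**
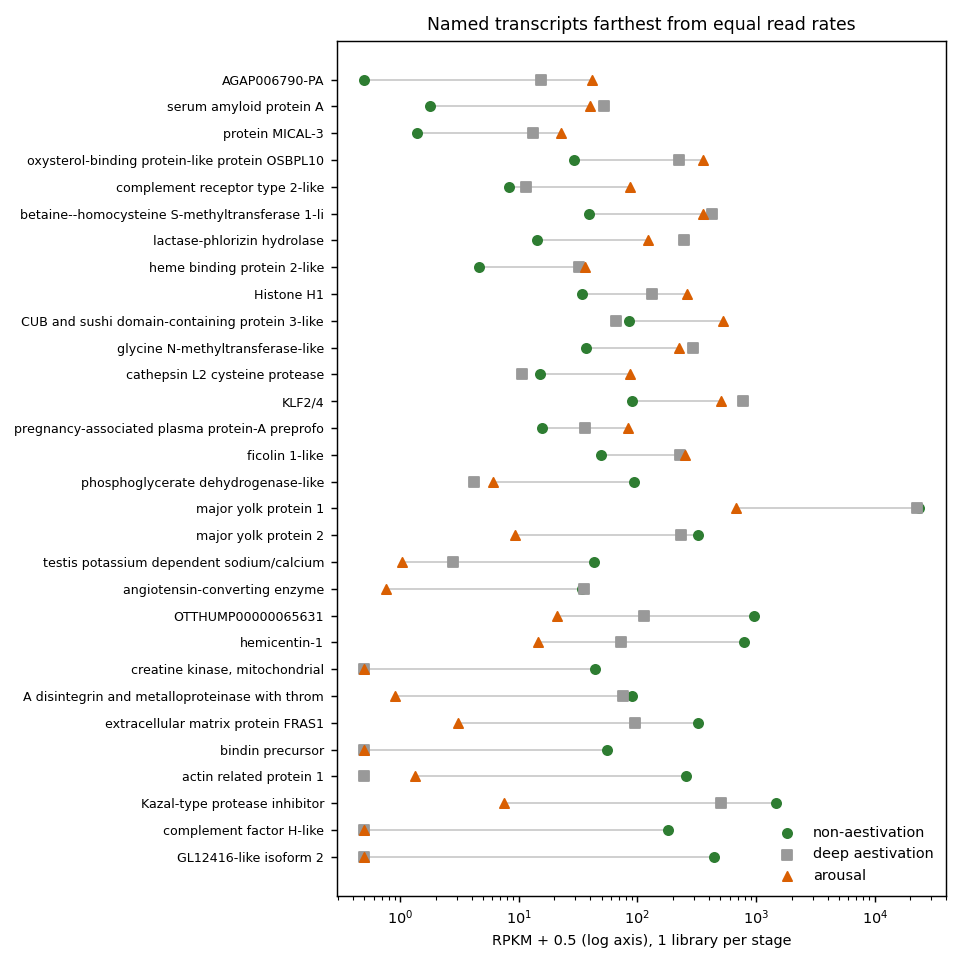
RPKM + 0.5 (log axis) in the 3 libraries for the 15 higher and 15 lower isotigs whose counting interval lies farthest from equal rates, 1 per protein name, sorted by log2 ratio. Circles are non-aestivation, squares deep aestivation and triangles arousal, with a line from non-aestivation to arousal. Major yolk protein 1 and 2, angiotensin-converting enzyme and ADAMTS7 have their squares beside the circles, and betaine-homocysteine methyltransferase, heme binding protein 2-like and ficolin 1-like have theirs beside the triangles.

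The isotigs farthest from equal rates also held transcripts outside the lists. Heme binding protein 2-like had 14, 164 and 100 reads over 4 isotigs, and 9, 66 and 80 on isotig01189, 8.69-fold higher there (4.36 to 19.7). MICAL-3 (isotig01568), of a family that oxidises actin, had 2, 27 and 51 reads, a ratio of 24.9 (6.56 to 211). Both were already above non-aestivation in deep aestivation. An isotig known only as OTTHUMP00000065631 (isotig13608) had 1755, 198 and 39 reads, with a counting interval of the fold from 33.5 to 65.0. There were 301, 0 and 1 reads of actin related protein 1 (isotig15746), and GL12416-like (isotig14370), named by an identifier only, had 658, 0 and 0, at least 224-fold lower against 3 reads. AGAP006790-PA (isotig26378) had 0, 6 and 18 reads, at least 5.86-fold higher against 3 reads. The last 3 were at 0 in at least 1 of the libraries.

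Methyl-group metabolism was split between enzymes. The betaine-dependent enzyme of homocysteine methylation (betaine-homocysteine methyltransferase, isotig13345), which forms methionine, had 83, 858 and 787 reads, 9.27-fold higher at arousal. Glycine N-methyltransferase-like, which consumes S-adenosylmethionine, had 29, 218 and 180 reads, 6.07-fold higher. The folate-dependent route to methionine moved the other way. Methionine synthase (5-methyltetrahydrofolate-homocysteine methyltransferase, isotig13085), which uses folate in place of betaine, had 127, 33 and 16 reads, 8.12-fold lower (4.81 to 14.6). Methylenetetrahydrofolate reductase (isotig13139), which supplies its methyl donor, had 261, 44 and 36 reads, 7.42-fold lower (5.22 to 10.8), and the folate enzyme methylenetetrahydrofolate dehydrogenase 1 (isotig15983) had 96, 65 and 43 reads, 2.28-fold lower. Guanidinoacetate N-methyltransferase (isotig16480), which makes creatine, had 30, 1 and 2 reads. Methionine adenosyltransferase (isotig14883), which makes S-adenosylmethionine, was at 224, 553 and 306 RPKM and was within 2-fold between arousal and non-aestivation. A second betaine-homocysteine methyltransferase isotig (isotig18090) had 22, 30 and 23 reads.

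Amino acid enzymes had the lowest median of the 43 lists, at -1.64, with 11 of 16 isotigs lower and 0 higher, and 9 lower when centred on matched isotigs. All 3 steps of serine synthesis were lower. Phosphoglycerate dehydrogenase-like (isotig13269), the first step, had 212, 8 and 13 reads, 16.7-fold lower (9.55 to 31.9). Phosphoserine aminotransferase, the next step, had 103, 41 and 33 reads, 3.19-fold lower, and phosphoserine phosphatase, the last, had 100, 21 and 11 reads, 9.30-fold lower. Ornithine aminotransferase had 249, 72 and 56 reads (4.55-fold lower), aspartate aminotransferase 2 had 490, 108 and 155 reads (3.23-fold lower), and ornithine decarboxylase 1, which opens polyamine synthesis, had 44, 11 and 10 reads (4.50-fold lower). Glutamate dehydrogenase 1, the most abundant of the list, was at 183, 60.4 and 89.1 RPKM, 2.05-fold lower (1.77 to 2.39). In each of these transcripts the arousal value lay closer to deep aestivation than to non-aestivation.

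Enzymes that build fatty acids and sterols were low at arousal, in a group of 11 isotigs chosen after their values were seen. Of these, 10 were at least 2-fold lower and 0 higher, and their reads summed to 532, 90 and 83. Fatty acid synthase-like (isotig17168) had 50, 1 and 1 reads, a rate 51.2-fold lower (8.77 to 2060). Acetyl-CoA carboxylase alpha-like, the committed step, had 21, 5 and 1 reads. ATP citrate lyase, which supplies cytosolic acetyl-CoA, had 28, 4 and 2 reads, and an isotig named acly protein-like (isotig17942) had 143, 13 and 15 reads, 9.75-fold lower (5.72 to 17.9). A fatty acid elongase had 66, 6 and 6 reads, and HMG-CoA reductase, the control point of sterol synthesis, had 127, 30 and 25 reads, 5.20-fold lower (3.37 to 8.33). The exception was an acyl-CoA desaturase-like isotig with 7, 3 and 10 reads. The wider list of lipid enzymes and carriers had 19 of 45 isotigs lower and 4 higher (median -0.74), and 7 lower when centred on matched isotigs. Apolipoprotein B (isotig13070), which carries lipid in body fluids, was at 505, 937 and 244 RPKM, highest in deep aestivation and 2.07-fold lower at arousal than in non-aestivation. Among the lipid-binding proteins that rose, OSBPL10, an oxysterol-binding protein, had 20, 148 and 256 reads (12.5-fold), and a START domain-containing protein, of a lipid transfer family, had 151, 429 and 625 reads (4.05-fold, 3.38 to 4.87).

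Among carbohydrate enzymes, glycogen synthase, which stores glucose, had 38, 14 and 5 reads on one isotig and 30, 14 and 7 on another, 7.78-fold and 4.38-fold lower. Of 13 glycolysis and gluconeogenesis isotigs 4 were lower and 0 higher, with a median of -0.72, and 1 was lower when centred on matched isotigs. Fructose-1,6-bisphosphatase, a gluconeogenic enzyme, had 97, 11 and 18 reads on isotig16469, 5.51-fold lower (3.31 to 9.69). The other isotigs named for it were within 2-fold, with 59, 35 and 50 reads on isotig22469 and 47, 29 and 44 on isotig23598. Fructose-bisphosphate aldolase, the most abundant of the list, was at 447, 378 and 369 RPKM. Of 19 tricarboxylic acid cycle isotigs 9 were lower and 1 higher (median -0.91), but 2 were lower and 2 higher when centred on matched isotigs. Aconitase 2 had 193, 86 and 74 reads, citrate synthase 125, 45 and 58, and cytosolic malate dehydrogenase 330, 116 and 156. By name, the list took in enzymes outside the mitochondrial cycle, such as this malate dehydrogenase and cytosolic NADP-dependent isocitrate dehydrogenase (isotig07783, 26, 7 and 3 reads). Both were among the 9 lower. The member that rose, isocitrate dehydrogenase 2 on isotig03728, had 12, 14 and 28 reads, but 28, 14 and 30 reads over its 4 isotigs, which is within 2-fold.

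In the respiratory chain, the mitochondrially encoded subunits were within 2-fold in RPKM. The median of their list of 3 isotigs, which took in a succinate dehydrogenase subunit, was 0.17, and 0.57 when centred on matched isotigs. Cytochrome c oxidase subunit 1 (isotig07060) had 4914, 6802 and 7113 reads, and ATP synthase F0 subunit 6 (isotig12529) had 3999, 3278 and 4603, with arousal ratios of 1.41 (1.36 to 1.47) and 1.13 (1.08 to 1.17). Of 49 nuclear-encoded electron transport and ATP synthase isotigs, 6 were lower, 4 higher and 39 within 2-fold, with a median of -0.31. Centred on matched isotigs the median was 0.10, with 1 lower and 6 higher. Each of the 4 higher isotigs shared its name with an isotig that was lower or within 2-fold. ATP synthase subunit C3-like had 22, 21 and 60 reads on isotig07845 but 391, 101 and 163 on isotig07844. The abundant ATP synthase beta (1395, 506 and 765 reads) and alpha (1378, 528 and 796) subunits were 1.87-fold and 1.77-fold lower, within 2-fold. Cytochrome c, the mobile electron carrier, had 167, 58 and 64 reads, 2.67-fold lower (1.99 to 3.62). Phosphagen kinases, which buffer ATP, were lower, with arginine kinase at 103, 34 and 44 reads (2.39-fold, 1.67 to 3.49).

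Of 62 isotigs of cytoplasmic ribosomal proteins, 61 were within 2-fold in RPKM, and their median log2 ratio was 0.22, with quartiles of 0.09 and 0.33. This median was 0.34 with TMM factors and 0.62 when centred on matched isotigs. The single call, 60S ribosomal protein L10a on isotig10422, had 0, 21 and 3 reads, while its 2 isotigs together had 341, 311 and 430. Ribosomal proteins made up 5.53%, 4.78% and 6.66% of the reads. Of 28 translation factor isotigs, 7 were lower and 1 higher, close to the 25.6% lower over all matched isotigs, with a median of -0.68, and 1 was lower when centred on matched isotigs. The RNA helicase eIF4A (isotig13817) had 666, 207 and 272 reads, 2.51-fold lower (2.17 to 2.90), while eIF4G, the scaffold of the same complex, had 571, 453 and 618. All 12 aminoacyl-tRNA synthetase isotigs had ratios below 0 on the log2 scale, and 4 of them were at least 2-fold lower (median -0.80). Asparaginyl-tRNA synthetase-like had 54, 9 and 9 reads, 6.14-fold lower (3.01 to 14.1). The p70 ribosomal protein S6 kinase, which signals from target of rapamycin to translation, had 60, 26 and 16 reads, 3.84-fold lower (2.18 to 7.14), and was 1 of 4 lower isotigs among 13 of insulin, target of rapamycin and energy signalling, with 0 higher, and 1 of these was lower when centred on matched isotigs.

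Of 18 isotigs of endoplasmic reticulum folding and translocation 9 were lower and 1 higher (median -1.04), and 8 were lower when centred on matched isotigs. The chaperone gp96 had 1334, 614 and 454 reads (3.01-fold lower, 2.70 to 3.35) and calreticulin-like 1344, 587 and 460 (2.99-fold lower, 2.69 to 3.33). Protein disulfide-isomerases A4 and A6, which form disulfide bonds in secreted proteins, had 120, 70 and 33 reads and 123, 75 and 37 reads, 3.72-fold and 3.40-fold lower. For these 4 transcripts arousal lay below deep aestivation too. The Sec61 gamma subunit of the translocon went the other way, with 18, 139 and 75 reads, 4.07-fold higher (2.41 to 7.24), and 4.20-fold higher over its 2 isotigs. The list also took in by its pattern 2 isotigs of other function, and without them 8 of 16 were lower.

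Of 36 isotigs of cytosolic heat shock proteins and the chaperonin, 16 were lower and 0 higher (median -0.93), and 5 were lower when centred on matched isotigs. Heat shock cognate 70, the constitutive folding chaperone, had 655, 290 and 271 reads over 3 isotigs, 2.47-fold lower. The gamma subunit of the chaperonin had 80, 16 and 25 reads on isotig21115, 3.27-fold lower, and the epsilon subunit 189, 63 and 94, 2.06-fold lower. The proteasome list had 10 of 22 lower and 0 higher (median -0.70), 5 of them lower when centred, with proteasome alpha 5 on isotig08607 at 50, 13 and 13 reads, 3.93-fold lower (2.11 to 7.90). Ubiquitin enzymes and ligases had 21 of 65 lower and 3 higher (median -0.53), against 25.6% lower over all matched isotigs, and 9 lower when centred. The higher members were an isotig of ubiquitin itself, with 15, 31 and 85 reads (5.54-fold, 3.18 to 10.3), F-box only protein 32-like (3, 41 and 21 reads) and Cpne3 protein (9, 26 and 36 reads). F-box only protein 32 is known in vertebrate muscle as the wasting-associated ligase atrogin-1. Ubiquitin and Cpne3 protein are not ubiquitin enzymes or ligases, and the pattern took them in by name.

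Lysosomal proteases and autophagy proteins stood apart from the proteasome. Of 20 isotigs in this list, which takes in other lysosomal proteins, 17 were within 2-fold, 2 were higher and 1 lower. The median was 0.08, against -0.40 over all matched isotigs, and 0.49 when centred on them. The lower member was autophagy-related 4D, with 18, 8 and 5 reads. Cathepsin L2 (isotig13709), a lysosomal cysteine protease, had 26, 17 and 156 reads and was high in the arousal library alone, 5.87-fold above non-aestivation (3.86 to 9.26). Cathepsin C had 10, 27 and 25 reads on isotig07207, 2.44-fold higher, but 129, 82 and 139 over its 2 isotigs, 1.05-fold. The abundant members cathepsin B (842, 785 and 1108 reads) and legumain-like (929, 954 and 1258 reads) were within 2-fold.

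**Figure D4:**
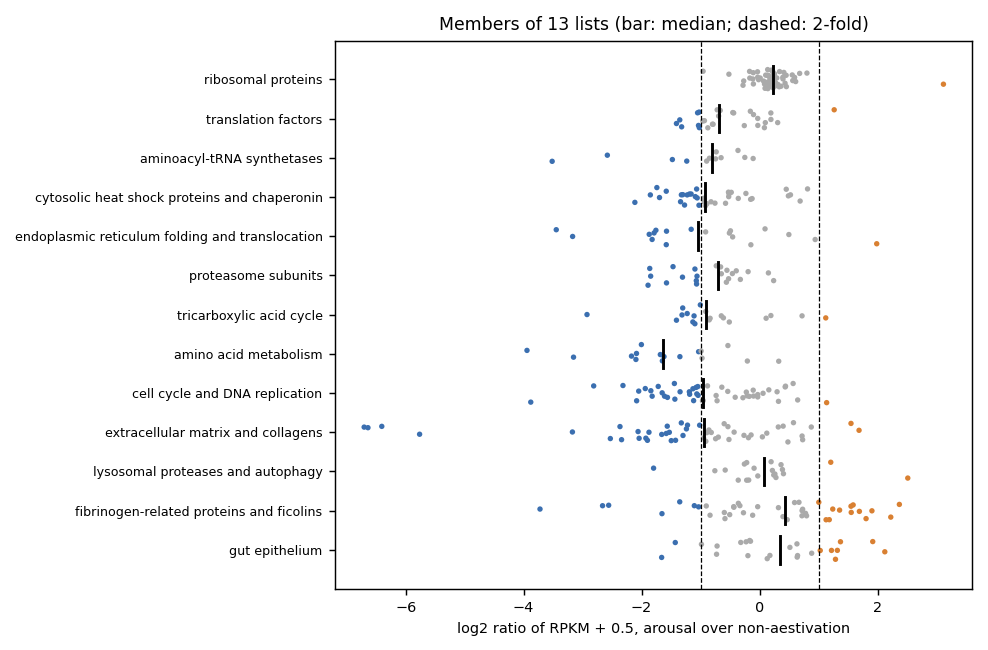
Log2 ratio of RPKM + 0.5, arousal over non-aestivation (x axis), of each isotig in 13 lists, with orange points for those at least 2-fold higher, blue for at least 2-fold lower and grey for the rest, and a black bar at the median. Ribosomal proteins gather near their median of 0.22, amino acid enzymes lie around -1.64, and fibrinogen-related proteins spread to both sides.

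Cell division transcripts were low. Of 48 isotigs of the cell cycle and DNA replication 23 were lower and 1 higher (median -0.96), and 14 were lower when centred on matched isotigs. Cyclin dependent kinase 2, which acts at the start of DNA replication, had 52, 10 and 3 reads, a 17.7-fold lower rate (5.74 to 88.8). Cell division cycle 2, the mitotic kinase, had 178, 42 and 50 reads, 3.64-fold lower (2.65 to 5.09), and its partner cyclin B had 56, 13 and 22, 2.60-fold lower (1.57 to 4.48). The replication helicase subunit MCM7 had 69, 14 and 26 reads over 3 isotigs, 2.71-fold lower (1.71 to 4.44), and DNA topoisomerase 2-alpha, which untangles chromosomes, had 116, 31 and 43. The transcription factor E2F3, which drives S phase genes in mammals, had 47, 15 and 18 reads, 2.67-fold lower.

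Reads of transcripts known from sperm or meiosis were lower in the same libraries. In a group of 10 isotigs chosen after their values were seen, 7 were lower and 0 higher, with 369, 69 and 60 reads in all. The sperm protein bindin had 61, 0 and 0 reads, mitochondrial creatine kinase 54, 0 and 0, flagellar creatine kinase 34, 2 and 0, a testis sodium/calcium exchanger 79, 4 and 1, and synaptonemal complex protein 1, of paired meiotic chromosomes, 23, 0 and 1. Tektin 3, a protein of cilia and flagella, had 31, 34 and 31. Of the 19 isotigs in the germ cell marker list, 7 were lower and 0 higher, with 572, 358 and 354 reads in all, and no isotig with a read was named vasa, piwi, nanos or zona pellucida. The part of these transcripts in the lower cell division list was not tested.

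Histone and chromatin transcripts differed between isotigs of like names. Histone H1, which binds the DNA between nucleosomes, had 21, 77 and 166 reads on isotig22036, 7.73-fold higher (4.89 to 12.8). The other H1 isotigs were within 2-fold, with 17, 6 and 13 reads on isotig28671, 16, 4 and 17 on isotig28567 and 21, 11 and 25 on isotig23519. The replacement histone H3.3 had 122, 326 and 324 reads over the 6 isotigs named H3.3 histone, 2.60-fold higher. A more abundant isotig that matched the same variant under another name (isotig20069) had 352, 434 and 487 reads, 1.35-fold higher (1.18 to 1.56) and within 2-fold. Chromodomain helicase DNA binding protein, of a family of chromatin remodellers, had 41, 84 and 140 reads on isotig06037, 3.34-fold higher (2.34 to 4.85), and 89, 156 and 211 over 4 isotigs of that name, 2.32-fold higher. The DNA (cytosine-5-)-methyltransferase isotig13195 had 54, 25 and 25 reads, 2.21-fold lower (1.35 to 3.71). In the chromatin list 4 of 28 isotigs were higher and 4 lower (median -0.06, which is 0.06 with TMM factors and 0.34 when centred on matched isotigs).

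Transcription factors were divided. Of 82 isotigs 13 were higher and 19 lower, with a median of -0.03 that was above 0 with TMM factors, median-of-ratios factors or centring. KLF2/4, a Krueppel-like zinc finger factor, was at 88.7, 776 and 507 RPKM, 5.71-fold higher at arousal (4.86 to 6.74). A hairy and enhancer of split factor, a repressor known as a target of Notch, had 24, 100 and 91 reads on isotig19276 (3.71-fold, 2.34 to 6.08) but 34, 89 and 39 on isotig17843, and Sox17, known for its role in endoderm, had 239, 576 and 522 reads (2.13-fold, 1.83 to 2.50). Each of these was also high in deep aestivation. Among the lower factors, COUP1, an orphan nuclear receptor, had 43, 21 and 8 reads (5.50-fold, 2.56 to 13.5) and the homeobox protein six4.2 had 34, 10 and 7 (4.97-fold). Hypoxia inducible factor 1 alpha, which is stabilised at low oxygen in other animals, had 586, 282 and 232 reads over 2 isotigs, 2.58-fold lower.

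Immune recognition transcripts went both ways, with the fibrinogen-related proteins and ficolins leading the lists by median. Ficolins are pattern-recognition proteins with a fibrinogen-like domain. Of 42 isotigs 13 were higher and 7 lower (median 0.43). With reads summed by protein name, 4 names were higher and 3 lower. Ficolin 1-like on isotig03772 had 94, 415 and 501 reads, 5.21-fold higher (4.17 to 6.57), and ficolin 1-like over 20 isotigs had 544, 791 and 1032, 1.85-fold higher. Fibrinogen C domain-containing protein 1-like had 306, 26 and 96 reads over 9 isotigs, 3.26-fold lower, and fibrinogen-like protein A had 868, 299 and 763 over 18 isotigs, 1.16-fold lower.

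Complement, the cascade that marks microbes for uptake, was split as well. Of 21 complement and sushi-domain isotigs 4 were higher and 5 lower, with a median of -0.04 that was 0.08 with TMM factors. Complement receptor type 2-like (isotig06225) had 9, 12 and 101 reads and CUB and sushi domain-containing protein 3-like (isotig25187) had 41, 30 and 261. Both were high in the arousal library alone. Complement factor B had 137, 126 and 239 reads over 6 isotigs, 1.71-fold higher, with 44, 20 and 142 on isotig00440. The central component named complement component 3-2 (isotig29329) had 741, 130 and 138 reads, 5.49-fold lower (4.57 to 6.64), whereas that named C3 had 2044, 2093 and 1861 reads over 2 isotigs. A complement factor H-like isotig (isotig27723) had 67, 0 and 0 reads, at least 22.8-fold lower against a floor of 3 reads, and the name summed to 148, 34 and 40 reads over 3 isotigs.

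Among lectins, scavenger receptors and Toll-like receptors 8 of 42 isotigs were higher and 15 lower (median -0.43). Toll-like receptor 3, which senses double-stranded RNA in vertebrates, had 28, 58 and 76 reads, 2.65-fold higher (1.70 to 4.25). Serum amyloid A, an acute-phase protein, had 1, 38 and 31 reads on isotig08092 and 1, 162 and 0 on isotig08093, so that the 2 isotigs together stood 15.2-fold higher at arousal (3.86 to 131) on 2 and 31 reads. Scavenger receptor cysteine-rich protein type 12, of a coelomocyte receptor family in sea urchins, had 722, 303 and 412 reads over 19 isotigs, 1.79-fold lower. A predicted Bcl-2 protein, which restrains cell death, had 36, 10 and 6 reads, and IkappaB kinase, which activates NF-kappa-B, had 46, 10 and 5, 9.41-fold lower (3.75 to 30.4). NF-kappa-B inhibitor zeta had 290, 437 and 467 reads, within 2-fold.

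Of the cell type markers, those of gut epithelium were the ones with more members higher than lower. Of 24 isotigs 7 were higher and 2 lower (median 0.34, or 0.75 when centred on matched isotigs). Without neurotrypsin, which the pattern took in by its name, 6 of 23 were higher and 2 lower. Supervillin and a potassium channel, also taken in by name, were within 2-fold. The list also holds peptidases not particular to gut, such as methionine aminopeptidase 1-like and leucine aminopeptidase 3, whose isotigs were within 2-fold. Prolylcarboxypeptidase, another of these, was 1 of the 2 lower members (93, 44 and 35 reads). Counts and median thus describe the list and not gut epithelium alone. Reads of all 24 isotigs summed to 3774, 3766 and 5697, of which the trypsin-like serine protease isotig13602 gave 1808, 2433 and 4306. That transcript was 2.33-fold higher at arousal (2.20 to 2.46), among the 10 isotigs with most reads there. Carboxypeptidase A-like had 48, 120 and 101 reads, membrane alanine aminopeptidase 33, 123 and 85, and a pancreatic-type phospholipase 41, 45 and 103, each over 2-fold higher. The higher members also held aminopeptidase N isotigs on few reads (2, 12 and 7 on isotig05199, and 3, 23 and 18 on isotig05197). Anionic trypsin-1 went the other way, with 362, 160 and 117 reads, 3.17-fold lower (2.56 to 3.93). Advillin (1006, 440 and 519 reads), alpha-amylase (8, 10 and 9) and sucrase-isomaltase (21, 11 and 19) were within 2-fold. The glycosidase lactase-phlorizin hydrolase, a brush-border enzyme in mammals, had 32, 660 and 291 reads over 3 isotigs, 8.89-fold higher at arousal. The part of gut cells in these values was not tested.

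Markers of cilia, muscle, coelomocytes and neurons are given for the cell make-up of the organ. Over 46 isotigs of cilia and microtubules the reads summed to 6394, 4849 and 6231, while 20 were lower and 3 higher (median -0.78), and 10 were lower when centred on matched isotigs. The lower members include proteins not named for cilia, such as kinesin KIF15 (22, 6 and 6 reads), kinesin C1 (23, 5 and 7) and gamma tubulin 2 (21, 7 and 9). Alpha tubulin on isotig18082 had 158, 11 and 25 reads, 6.47-fold lower, beta-tubulin on isotig18713 had 181, 299 and 534, 2.88-fold higher, and the most abundant member by RPKM, tubulin beta-2C chain, had 1318, 635 and 1341. Axonemal proteins, which form the core of the cilium, were lower or within 2-fold in most isotigs. Outer arm dynein light chain 1 had 34, 4 and 6 reads and radial spokehead had 93, 53 and 38, while axonemal leucine-rich repeat protein (35, 20 and 25), axonemal dynein heavy chain 8 (8, 14 and 10) and a radial spoke head 1 homolog (4, 14 and 8) were within 2-fold. The 30 muscle isotigs summed to 3880, 4477 and 3764 reads, with 9 lower and 2 higher, and 3 lower when centred. Myosin heavy chain (isotig06040) had 1198, 431 and 501 reads, 2.45-fold lower, whereas smooth muscle myosin light chain kinase (isotig13077), which starts contraction, had 198, 1155 and 885, 4.37-fold higher (3.74 to 5.12). The 36 coelomocyte isotigs summed to 5903, 3880 and 3971 reads, with 14 lower and 1 higher. Summed by protein name, which leaves fewer members, 6 names were lower. The 37 neuron isotigs summed to 1855, 1571 and 1681 reads, with 10 lower and 5 higher. No marker in the muscle or coelomocyte list was at 0 in any library, and their part in the other results was not tested.

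Pumps, channels and carriers, which set the salt balance of the epithelium, had 32 of 108 isotigs lower and 3 higher (median -0.42), close to the 25.6% and 6.68% over all matched isotigs. The sodium/potassium ATPase alpha subunit, the pump that maintains the sodium gradient, had 439, 134 and 185 reads on isotig17841, 2.43-fold lower (2.04 to 2.90), and 1246, 585 and 655 over 2 isotigs, 1.95-fold lower. A glyceroaquaporin had 42, 20 and 13 reads, 3.31-fold lower, while the more abundant aquaporin-4 isotig (isotig15882) had 251, 135 and 193. Cytochrome P450 and other detoxification enzymes had 12 of 36 lower and 0 higher, with cytochrome P450 4C1-like at 74, 20 and 6 reads, 12.6-fold lower (5.53 to 35.5). Antioxidant and glutathione enzymes had 11 of 34 lower and 1 higher, with a median of -0.36 that was 0.05 when centred on matched isotigs. Of the glutathione S-transferases, isotig16538 had 145, 54 and 42 reads, 3.53-fold lower, while isotig14824 had 170, 193 and 230 and copper/zinc superoxide dismutase-like, which removes superoxide, had 154, 225 and 180.

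**Figure D5:**
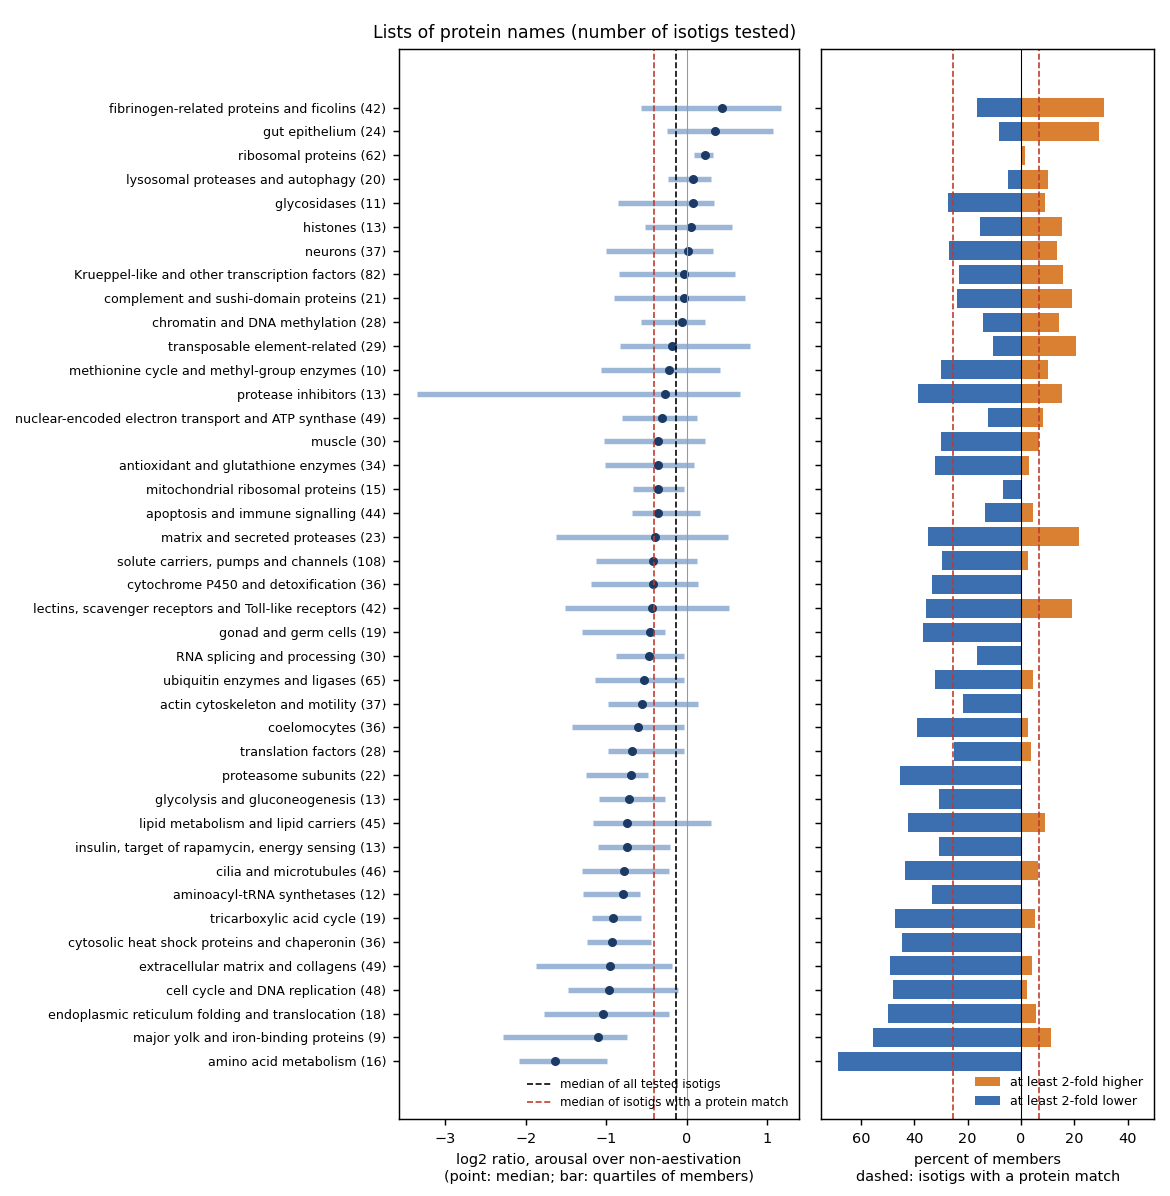
For each list with at least 5 isotigs (number in brackets), the left panel gives the median log2 ratio, arousal over non-aestivation, with a bar over the quartiles, and the right panel the percent of members at least 2-fold higher (orange) and lower (blue). Dashed lines mark the medians of all and of matched isotigs at left and 6.68% and 25.6% at right. Amino acid metabolism lies lowest, at -1.64, and fibrinogen-related proteins and ficolins highest, at 0.43.

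Gene ontology terms in the deposited annotation had mostly lower medians. Among 3093 tested isotigs with a term, 137 were higher (4.43%) and 887 lower (28.7%), with a median of -0.52. Of terms carried by at least 30 isotigs, 28 of 29 component terms, 27 of 28 function terms and 32 of 35 process terms had medians below 0. The lowest component terms were cell fraction (25 of 49 lower, 0 higher, median -1.09), macromolecular complex (16 of 39, -0.79) and mitochondrial part (14 of 35, -0.76), followed by cytoplasm, microtubule cytoskeleton and endosome. The lowest named function terms were nucleoside-triphosphatase activity (33 of 93 lower, median -0.79), endopeptidase activity (17 of 38, -0.78) and protein kinase activity (26 of 57, -0.76). The lowest named process terms were phosphate-containing compound metabolic process (21 of 48, -0.83), primary metabolic process (18 of 43, -0.81), protein modification process (36 of 92, -0.80) and protein transport (13 of 50, -0.79). For protein transport, the count of lower isotigs was near the 28.7% over all isotigs with a term.

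At the other end of the ontologies stood terms that hold ribosomal proteins. Structural molecule activity had a median of 0.19 over 82 isotigs, 46 of them ribosomal proteins, and ribonucleoprotein complex a median of 0.13 over 60, with 26 ribosomal proteins. Gene expression (0.14 over 63, 20 ribosomal proteins) and pancreas development (0.21 over 38, 24 ribosomal proteins) were the highest named process terms. Lytic vacuole, the compartment of lysosomes, was the second highest component term, at -0.09 over 31 isotigs. Transcription cofactor activity (-0.23 over 35) and nucleic acid binding transcription factor activity (-0.22 over 49) stood above most function terms.

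Isotigs without a protein match held the most abundant transcripts at arousal. The isotigs isotig22175, isotig24195 and isotig10678, of 650, 546 and 382 bases, had the most reads in the arousal library, with 72637, 56369 and 23667. In non-aestivation they had 42847, 36203 and 14604, so that each was between 1.52-fold and 1.66-fold higher, within the 2-fold line. The short isotig29200 (280 bases) had 3512, 8407 and 13586 reads, 3.78-fold higher (3.64 to 3.93). Farthest from equal rates were isotig09137, with 7, 43 and 238 reads, and isotig14639, with 106, 1802 and 1404 reads, 33.2-fold and 12.9-fold higher. In the other direction, isotig27868 had 265, 60 and 0 reads, at least 90.4-fold lower against 3 reads, and isotig09836 had 252, 1 and 0, at least 85.9-fold lower. Over all tested isotigs, 38 were at 0 in the arousal library and 27 in non-aestivation.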

How the data were processed

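Poly(A) RNA of respiratory trees was selected with oligo(dT) and reverse transcribed from random hexamers after fragmentation, per the labels' protocols. No step that marks strand is described, so sense and antisense reads cannot be told apart. CASAVA 1.5 was used, per the submitters' processing notes. The aligner was not given in the sources used here. As deposited, per the file headers, the values are a count of uniquely mapped reads per isotig, the authors' RPKM, the percent of the isotig covered, its length, ontology terms and best protein match. All deposited RPKM values matched the counts within a relative tolerance of 1e-09. No replicate exists, so no count model was fitted and no p-value computed.

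Isotigs absent from a deposited table were taken as 0 reads. Calls used a difference of 1 in log2(RPKM + 0.5). For 0 reads, folds are bounds against a floor of 3 reads in that library. The sources describe no molecular identifiers, so reads are not separate molecules, and intervals and floors cover counting error only. Protein names are the deposited best matches, often to other species (3806 tested isotigs with an informative name). RefSeq gene names share no identifier with the isotigs, so no sequences or positions are given. The comparison and its 43 lists of protein names, listed by patterns, were chosen with earlier results of these data known. Some patterns took in other proteins, such as flagellar creatine kinase among cilia markers or a synaptonemal complex protein among neurons, and missed some, such as betaine-homocysteine methyltransferase in the methionine list.

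Named isotigs were the 15 higher and 15 lower, 1 per informative name, whose interval lay farthest from equal rates, the most abundant and the farthest members of each list, and the 10 most abundant isotigs of either library. For ontology terms with at least 30 isotigs, the 6 highest and 6 lowest by median were taken per ontology. All other isotigs named were chosen after their values were seen. Where isotigs are nearly identical, unique mapping can divide or lose their reads, so sums over isotigs of 1 name are given where they differ much.

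Alternatives were pseudocounts of 0.1 and 1, no read filter, at least 100 reads, 20 reads over the 2 libraries, scaling by TMM with edgeR 4.0.16 or by median of ratios with DESeq2 1.42.0, library totals that leave out the isotigs with most reads, centring on matched isotigs, an interval criterion and sums by protein name. Lists without accidental members were added after seeing the data. The 2-fold rule and the interval were tested on simulated counts that hold counting error only, with no variation between animals or libraries. Python 3.11.15, numpy 2.4.6, pandas 2.3.3, scipy 1.17.1, matplotlib 3.10.9 and R 4.3.3 were used.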

Additional observations from a re-analysis of the deposited data

How the results depend on the processing

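The counts over all isotigs, 1366 higher and 2053 lower, moved by over 1.5 times in 6 alternative values and stayed within it in 16. They were 3463 and 5724 with no read filter, 516 and 491 with at least 100 reads, and 2453 and 1142 when ratios were centred on matched isotigs. Of the named transcripts, isocitrate dehydrogenase 2 on isotig03728 changed sign to -0.024 on the log2 scale and the scavenger receptor cysteine-rich isotig06862 to -0.81 when reads were summed by protein name. Of the other values of named isotigs, 109 moved and 1281 did not, all without a called value changing sign. List medians moved in 17 values and stayed in 469, and list counts moved in 213 and stayed in 761. The medians of 12 lists changed sign under a scaling. They are mitochondrial ribosomal proteins, chromatin, nuclear-encoded electron transport, the methionine cycle, antioxidant enzymes, matrix proteases, protease inhibitors, complement, apoptosis and immune signalling, transcription factors, transposable elements and muscle. No paired analysis was possible because each stage has 1 library and the labels give no replicate numbers, and no replicate could be left out for the same reason. Depth limits the rare transcripts: a fold resting on fewer than 10 reads in a library has an interval that spans several-fold.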

Other observations

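Some transcripts outside the lists stood out, and those below were singled out after their values were seen, apart from the AMPA receptor isotig, which was named for its abundance. Growth factor receptor 2 variant b (isotig06516) had 436, 430 and 36 reads in non-aestivation, deep aestivation and arousal, 12.4-fold lower at arousal (8.81 to 17.9). Guanylate cyclase (isotig13105), which makes cyclic GMP, had 296, 3 and 57 reads, lowest in deep aestivation and 5.31-fold lower at arousal than in non-aestivation. Cubilin-like (isotig25069), an endocytic receptor of absorptive epithelia in mammals, had 333, 127 and 52 reads, 6.55-fold lower (4.88 to 8.95). Ependymin-related protein had 954, 243 and 218 reads on isotig07195 and 199, 773 and 103 on isotig07194. Xanthine dehydrogenase-like (isotig22825), which ends purine breakdown, had 35, 3 and 1 reads. Follistatin (isotig25507), which binds activin, had 8, 51 and 56 reads, 6.84-fold higher (3.24 to 16.6). Protein kinase C delta (isotig03795) had 94, 255 and 373 reads, 3.88-fold higher (3.09 to 4.92), and caprin-2-like (isotig17144) had 86, 409 and 417, 4.74-fold higher (3.75 to 6.05).

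Tensilin (isotig15535), a protein known for stiffening sea cucumber dermis, had 306, 539 and 682 reads, 2.18-fold higher (1.90 to 2.50). Regeneration associated protein on isotig16746 had 38, 77 and 159 reads, 4.09-fold higher, while isotig17935 of that name had 35, 5 and 27. An isotig named AMPA receptor GluR2/B (isotig13309) was among the 10 with most reads at arousal, with 3058, 5290 and 6520, 2.08-fold higher. Dual oxidase-A (isotig13477), which makes hydrogen peroxide at epithelial surfaces, had 1870, 2705 and 3690 reads, a log2 ratio of 0.95 just under the 2-fold line.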
